A study of Mus musculus with 13 samples.

Results

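Chemokine ligands are small signalling proteins that draw white blood cells and other motile cells along a gradient. The 30 genes described here were the mouse chemokine ligands that the array measured through a transcript cluster, the group of probes that reports 1 gene, with a single gene symbol of the Ccl or Cxcl series or Cx3cl1. They were 30 of 23332 clusters, each gene had 1 such cluster, and 2 further clusters that joined a chemokine name with other gene names were left out. By role they were 4 CXC ligands with the ELR motif, 3 ligands of the receptor Cxcr3, 6 other CXC and CX3C ligands, 11 inflammatory CC ligands and 6 CC ligands of homeostasis or tissue homing.

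Chemokines act on receptors coupled to G proteins on the cells they attract, and most are secreted, while Cx3cl1 and Cxcl16 are made as membrane proteins that proteases release. Fibroblasts are a known source of several of them. Transcription of the inflammatory ligands is commonly switched on by the factor NF-kappaB after signals such as interleukin 1 or tumour necrosis factor, and that of Cxcl9, Cxcl10 and Cxcl11 by interferons.

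The study followed mouse embryonic fibroblasts (MEFs) as they were turned into induced pluripotent stem (iPS) cells by factors under a promoter that doxycycline (Dox) switches on. Total RNA was measured on 13 Affymetrix mouse exon arrays, 1 for each condition, and all values are the deposited RMA levels on the log2 scale, which can be compared between arrays for a gene but not between genes. The iPS cells were the 6C-secondary iPS cells of day 30 and the 6C-primary iPS cells (2 arrays), both labelled as independent of Dox although their agent label names it. The arrays under Dox, at 1.5 µg per ml, were the 6C-secondary cells at days 2, 5, 8, 11, 16 and 21 and the 1B-secondary cells at day 5 (7 arrays). A further 1B array had 5 days of Dox followed by 5 days without it, called withdrawal here. The untreated fibroblasts were parental MEFs and the 6C and 1B cells at day 0 (3 arrays). The 6C and 1B cells carry the inducible factors at day 0 too, and each line stands for 1 derivation, while the labels do not say what the parental MEFs carry.

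With 1 array for each condition, p-values rest on the spread between lines and days, which may be technical in part. The array names fell into 4 runs. In run 1 were the 6C arrays of days 0 and 21, in run 2 those of days 2, 5, 11 and 16 with the primary iPS and parental arrays, in run 3 all of 1B, and in run 4 the 6C day 8 array with the secondary iPS array. Within these names the 6C day 0 array reads day 2 without Dox and the 6C day 8 array reads day 9; the sample labels were followed, and taking day 8 as day 9 in the test over the 6C series called the same 6 ligands. Array medians lay between 6.34 and 6.67, with the lowest in 6C at day 0. All 12 pluripotency markers measured were higher in iPS cells than in untreated fibroblasts by limma (adjusted p under 0.05 and at least 2-fold), against 5.44% of all clusters. The median of 13 fibroblast markers was 6.69 in primary and 9.74 in secondary iPS cells, against 11.28 to 13.10 in untreated fibroblasts. The cells that gave this signal in the secondary iPS array were not determined, and the 2 iPS arrays were in different runs. In bulk RNA, fewer cells of a type and less RNA per cell cannot be told apart.

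The ligands moved more than most genes, and most of them had their highest 6C level in the middle of reprogramming. The range over the 13 arrays was at least 3 log2 units for 13 of the 30 ligands (43.3%), against 14.7% of all clusters, and the median range was 2.65, against 1.67. In the 6C series 21 of 30 ligands had their highest array at day 5, 8 or 11 (7, 11 and 3 ligands), against 33.6% of all clusters. Without the day 8 array it held for 20 of 30 ligands (29.5% of clusters), and over the 4 arrays of run 2 alone for 24 of 30 (45.3% of clusters). The lowest 6C array was day 21 for 10 ligands (13.8% of clusters). On the other side, 12 ligands never exceeded the median of their array, so small differences in them lie near the low end of the measurement, and Cxcl16 alone exceeded it on all 13 arrays.

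**Figure D1:**
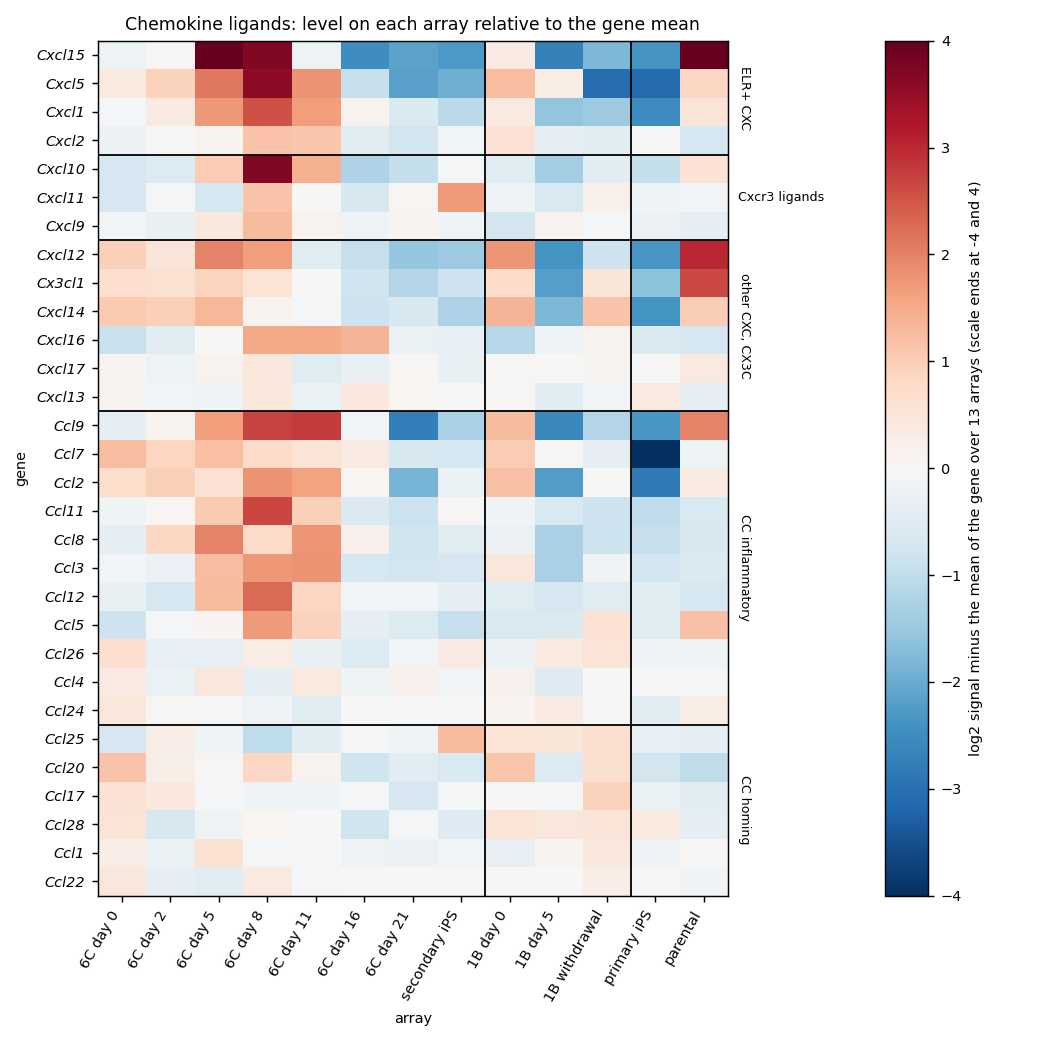
Level of each of the 30 ligands on each of the 13 arrays (columns), as log2 signal minus the mean of the gene over the arrays (colour, ending at -4 and 4), with genes grouped by role. On 6C day 8 all 4 ELR ligands and all 3 Cxcr3 ligands lie above their own means, and the widest homing CC ligand, Ccl25, ranges over 2.27 log2 units.

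The 4 ELR ligands, Cxcl5, Cxcl1, Cxcl15 and Cxcl2, attract neutrophils, and Cxcl1, Cxcl2 and Cxcl5 do so through the receptor Cxcr2. All 4 were at least 2-fold above day 0 on day 8 of 6C (12.5% of all clusters). All 4 were also at least 2-fold lower on day 16 than on day 11 (5.22% of all clusters). Cxcl5 had 6C levels of 9.85 at day 0, 10.37 on day 2, 11.56 on day 5, 13.02 on day 8, 11.26 on day 11, 8.54 on day 16, 7.29 on day 21 and 7.49 in the secondary iPS cells at day 30. Elsewhere it measured 10.70 at day 0, 9.76 on day 5 and 6.40 after withdrawal in 1B cells, and 6.38 in primary iPS cells against 10.28 in parental fibroblasts. It stood 3.16 log2 units (8.96-fold) above day 0 on day 8 and below day 0 on each 6C array from day 16 on.

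Cxcl1, the mouse counterpart of the growth-related oncogene chemokines, had 6C levels of 7.10 at day 0, 7.51 on day 2, 8.92 on day 5, 9.73 on day 8, 8.85 on day 11, 7.31 on day 16, 6.59 on day 21 and 6.09 in the secondary iPS cells at day 30. On the remaining arrays it stood at 7.53 at day 0, 5.60 on day 5 and 5.72 after withdrawal in 1B cells, and 4.66 in primary iPS cells against 7.68 in parental fibroblasts. Day 8 was 2.63 log2 units (6.18-fold) above day 0, and the 2 iPS arrays lay below each of the 3 untreated arrays. Cxcl15, known as a neutrophil attractant of the mouse lung, was the ligand of widest range (8.43 log2 units).

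Cxcl15 had 6C levels of 5.56 at day 0, 5.82 on day 2, 10.17 on day 5, 9.46 on day 8, 5.56 on day 11, 3.30 on day 16, 3.65 on day 21 and 3.49 in the secondary iPS cells at day 30. Its other levels were 6.10 at day 0, 3.06 on day 5 and 3.98 after withdrawal in 1B cells, and 3.43 in primary iPS cells against 11.49 in parental fibroblasts. It was high on 6C days 5 and 8 and highest in the parental MEFs, which stood 5.39 log2 units above 1B at day 0, so the untreated arrays disagreed widely. Cxcl2 kept below the median of its array throughout, between 4.02 at day 21 and 5.89 at day 8 in 6C, with 5.33 in 1B at day 0 as its highest level outside 6C.

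The promoters of Cxcl1 and Cxcl2, neighbours on chromosome 5, are shown because the same motif lies before both starts. Both are RefSeq sequences of GRCm38.p6 covering the 250 bases before the start, at chr5:90890995-90891244, plus strand, and chr5:90903649-90903898, plus strand. The capitals mark a kappaB motif, the binding sequence of NF-kappaB; the same 11 bases hold a match on each strand, and these overlap.
Cxcl1: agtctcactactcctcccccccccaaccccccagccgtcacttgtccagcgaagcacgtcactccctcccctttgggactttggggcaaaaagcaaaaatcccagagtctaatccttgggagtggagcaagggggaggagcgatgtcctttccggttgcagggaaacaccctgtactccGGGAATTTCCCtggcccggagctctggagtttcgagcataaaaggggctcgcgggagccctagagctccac
Cxcl2: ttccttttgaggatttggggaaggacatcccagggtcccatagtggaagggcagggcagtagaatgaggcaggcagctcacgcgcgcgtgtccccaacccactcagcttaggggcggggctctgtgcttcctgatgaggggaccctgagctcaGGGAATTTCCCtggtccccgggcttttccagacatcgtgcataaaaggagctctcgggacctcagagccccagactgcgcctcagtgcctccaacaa

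The interferon-inducible ligands Cxcl10, Cxcl9 and Cxcl11 bind Cxcr3 on T cells and natural killer cells. All 3 ligands were at least 2-fold above day 0 on day 8 of 6C (12.5% of all clusters). Cxcl10 had 6C levels of 6.04 at day 0, 6.18 on day 2, 7.74 on day 5, 10.42 on day 8, 8.16 on day 11, 5.50 on day 16, 5.78 on day 21 and 6.63 in the secondary iPS cells at day 30. Elsewhere it measured 6.24 at day 0, 5.36 on day 5 and 6.29 after withdrawal in 1B cells, and 5.76 in primary iPS cells against 7.31 in parental fibroblasts. The day 8 array stood 4.38 log2 units (20.8-fold) above day 0, the largest such difference among the ligands, and days 5 and 11 stood 1.70 and 2.12 above it. Cxcl10 did not pass the test over the 6C series (fitted change 3.26, SE 1.11, limma adjusted p = 0.207).

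Cxcl9 ranged from 4.29 in 1B at day 0 to 6.27 in 6C at day 8. Cxcl11 was highest in the secondary iPS cells (5.75) and next on 6C day 8 (5.18), the 2 arrays of run 4, and lay between 3.35 and 4.24 elsewhere. For Cxcl11, run and condition cannot be told apart in these 2 arrays. Neither Cxcl9 nor Cxcl11 exceeded the median of its array.

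The promoter of Cxcl10 (chr5:92348890-92349139, minus strand) is shown because it held all 3 motifs searched. In capitals from the 5′ end are 1 interferon-stimulated response element (ISRE) core, a pair of kappaB motifs and 1 AP-1 core.
Cxcl10: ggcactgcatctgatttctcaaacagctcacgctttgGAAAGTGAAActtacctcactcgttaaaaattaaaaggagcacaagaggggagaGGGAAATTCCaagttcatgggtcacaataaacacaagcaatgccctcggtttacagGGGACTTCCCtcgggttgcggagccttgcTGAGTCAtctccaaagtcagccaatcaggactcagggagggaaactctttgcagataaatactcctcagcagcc

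The 11 inflammatory CC ligands attract mainly monocytes, macrophages and eosinophils. Of these ligands 8 had their highest 6C array at days 5 to 11 (33.6% of all clusters). On day 8, 7 were at least 2-fold above day 0 (12.5% of all clusters). On day 16, 6 were at least 2-fold lower than on day 11 (5.22% of all clusters). Ccl9, a ligand of Ccr1 in the mouse, had 6C levels of 6.78 at day 0, 7.29 on day 2, 8.83 on day 5, 9.83 on day 8, 9.94 on day 11, 7.03 on day 16, 4.40 on day 21 and 5.85 in the secondary iPS cells at day 30. On the remaining arrays it stood at 8.41 at day 0, 4.57 on day 5 and 5.96 after withdrawal in 1B cells, and 4.82 in primary iPS cells against 9.13 in parental fibroblasts. Days 8 and 11 stood 3.05 and 3.16 log2 units above day 0, and day 21 stood 2.37 below it. The lowest untreated level, 6.78, lay above both iPS levels.

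The promoter of Ccl9 (chr11:83578637-83578886, minus strand) is that of a ligand whose 6C course passed the test, and it held a kappaB motif. In capitals are 1 AP-1 core and 1 kappaB motif. The promoters of Cx3cl1 and Cxcl14, whose 6C courses passed the test too, held no kappaB motif and are not shown.
Ccl9: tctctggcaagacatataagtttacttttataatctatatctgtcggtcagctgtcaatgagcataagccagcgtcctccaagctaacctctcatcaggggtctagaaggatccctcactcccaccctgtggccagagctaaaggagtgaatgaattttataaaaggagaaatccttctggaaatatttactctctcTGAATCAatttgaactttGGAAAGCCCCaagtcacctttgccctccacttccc

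Ccl2 and Ccl7 attract monocytes through Ccr2. Ccl2 had 6C levels of 9.16 at day 0, 9.40 on day 2, 9.01 on day 5, 10.24 on day 8, 10.05 on day 11, 8.52 on day 16, 6.59 on day 21 and 8.16 in the secondary iPS cells at day 30. Its other levels were 9.60 at day 0, 6.20 on day 5 and 8.42 after withdrawal in 1B cells, and 5.61 in primary iPS cells against 8.78 in parental fibroblasts. It was 1.08 log2 units above day 0 on day 8 and 2.57 below it on day 21, and the 2 iPS arrays differed by 2.55.

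Ccl7 had its highest 6C array at day 0. Its 6C levels were 11.27 at day 0, 10.91 on day 2, 11.26 on day 5, 10.79 on day 8, 10.59 on day 11, 10.40 on day 16, 9.40 on day 21 and 9.34 in the secondary iPS cells at day 30. Elsewhere it measured 11.05 at day 0, 10.02 on day 5 and 9.63 after withdrawal in 1B cells, and 6.01 in primary iPS cells against 9.83 in parental fibroblasts. The primary iPS array stood alone, 3.32 log2 units below the secondary iPS array, while the other 12 arrays lay between 9.34 and 11.27.

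Ccl11, or eotaxin, attracts eosinophils through Ccr3. Its 6C levels were 6.31 at day 0, 6.54 on day 2, 7.52 on day 5, 9.15 on day 8, 7.43 on day 11, 5.89 on day 16, 5.60 on day 21 and 6.52 in the secondary iPS cells at day 30. On the remaining arrays it stood at 6.29 at day 0, 5.87 on day 5 and 5.63 after withdrawal in 1B cells, and 5.46 in primary iPS cells against 5.87 in parental fibroblasts. A single array, 6C at day 8, stood 2.84 log2 units above day 0, with days 5 and 11 next.

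Ccl8, which in the mouse signals through Ccr8, had 6C levels of 4.31 at day 0, 5.49 on day 2, 6.65 on day 5, 5.42 on day 8, 6.42 on day 11, 4.87 on day 16, 3.86 on day 21 and 4.18 in the secondary iPS cells at day 30. Its other levels were 4.43 at day 0, 3.36 on day 5 and 3.79 after withdrawal in 1B cells, and 3.75 in primary iPS cells against 4.01 in parental fibroblasts. It was high on days 5 and 11 and lower on day 8 between them and never exceeded the median of its array. Ccl3 is made largely by macrophages.

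Ccl3 had 6C levels of 5.42 at day 0, 5.28 on day 2, 6.73 on day 5, 7.25 on day 8, 7.30 on day 11, 4.82 on day 16, 4.76 on day 21 and 4.85 in the secondary iPS cells at day 30. Elsewhere it measured 5.97 at day 0, 4.22 on day 5 and 5.37 after withdrawal in 1B cells, and 4.73 in primary iPS cells against 4.94 in parental fibroblasts. The 3 arrays of days 5, 8 and 11 stood 1.32 to 1.89 log2 units above day 0, and all other arrays lay at 5.97 or below.

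The remaining inflammatory CC ligands were smaller in range. Ccl12, a Ccr2 ligand of the mouse, reached 7.21 on 6C day 8 and lay between 4.23 and 6.21 elsewhere. Ccl5 reached 6.77 on 6C day 8 and 6.26 in the parental MEFs and was lowest in the secondary iPS cells (4.15). Ccl4, Ccl24 and Ccl26 ranged over 0.94 to 1.21 log2 units and never exceeded the array median.

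The 6 other CXC and CX3C ligands include the stromal ligand Cxcl12 (SDF-1), which binds Cxcr4 and Ackr3. All 6 had their highest 6C array at days 5 to 11 (33.6% of all clusters). Only Cxcl16 was at least 2-fold above day 0 on day 8 (12.5% of all clusters). Cxcl12 had 6C levels of 9.18 at day 0, 8.74 on day 2, 10.20 on day 5, 9.88 on day 8, 7.73 on day 11, 7.31 on day 16, 6.68 on day 21 and 6.77 in the secondary iPS cells at day 30. On the remaining arrays it stood at 9.97 at day 0, 5.82 on day 5 and 7.40 after withdrawal in 1B cells, and 5.89 in primary iPS cells against 11.25 in parental fibroblasts. It stood 1.02 log2 units above day 0 on day 5 of 6C, and from day 11 on each 6C array lay at least 1.45 below day 0.

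Cxcl14, expressed by epithelia and stroma, had 6C levels of 9.52 at day 0, 9.42 on day 2, 9.79 on day 5, 8.60 on day 8, 8.39 on day 11, 7.64 on day 16, 7.84 on day 21 and 7.23 in the secondary iPS cells at day 30. Its other levels were 9.82 at day 0, 6.66 on day 5 and 9.59 after withdrawal in 1B cells, and 6.08 in primary iPS cells against 9.45 in parental fibroblasts. The 3 untreated arrays lay within 0.36 log2 units of each other, and both iPS arrays lay over 2 units below the lowest of them.

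Cx3cl1, or fractalkine, is a membrane-anchored ligand of Cx3cr1. Its 6C levels were 8.86 at day 0, 8.78 on day 2, 9.08 on day 5, 8.74 on day 8, 8.20 on day 11, 7.38 on day 16, 7.02 on day 21 and 7.37 in the secondary iPS cells at day 30. Elsewhere it measured 8.92 at day 0, 5.99 on day 5 and 8.67 after withdrawal in 1B cells, and 6.56 in primary iPS cells against 10.83 in parental fibroblasts. The parental MEFs were 1.91 log2 units above the next untreated array, and the lowest array of all was 1B at day 5.

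Cxcl16, a transmembrane ligand of Cxcr6, is given here after its values were seen. It lay between 9.37 and 9.55 on 6C days 8, 11 and 16 and at 8.15 or below on the other arrays. Cxcl13 and Cxcl17 varied by under 1 log2 unit. The CC ligands of homeostasis or homing were Ccl1, Ccl17, Ccl20, Ccl22, Ccl25 and Ccl28. None of them was at least 2-fold above day 0 on day 8 (12.5% of all clusters).

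Ccl25, a ligand of Ccr9 known from thymus and gut, ranged widest among these 6. Its 6C levels were 6.21 at day 0, 7.15 on day 2, 6.72 on day 5, 5.87 on day 8, 6.48 on day 11, 6.84 on day 16, 6.75 on day 21 and 8.15 in the secondary iPS cells at day 30. On the remaining arrays it stood at 7.45 at day 0, 7.40 on day 5 and 7.55 after withdrawal in 1B cells, and 6.57 in primary iPS cells against 6.51 in parental fibroblasts. It was lowest on day 8, the day on which 11 of the 30 ligands were highest, and highest in the secondary iPS cells. Ccl20, the ligand of Ccr6, was high at day 0 in both lines (7.75 in 6C and 7.71 in 1B) but 5.60 in the parental MEFs. Ccl1, Ccl17, Ccl22 and Ccl28 ranged over 0.91 to 1.62 log2 units, and several arrays shared identical summarised values for Ccl17 and Ccl22.

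**Figure D2:**
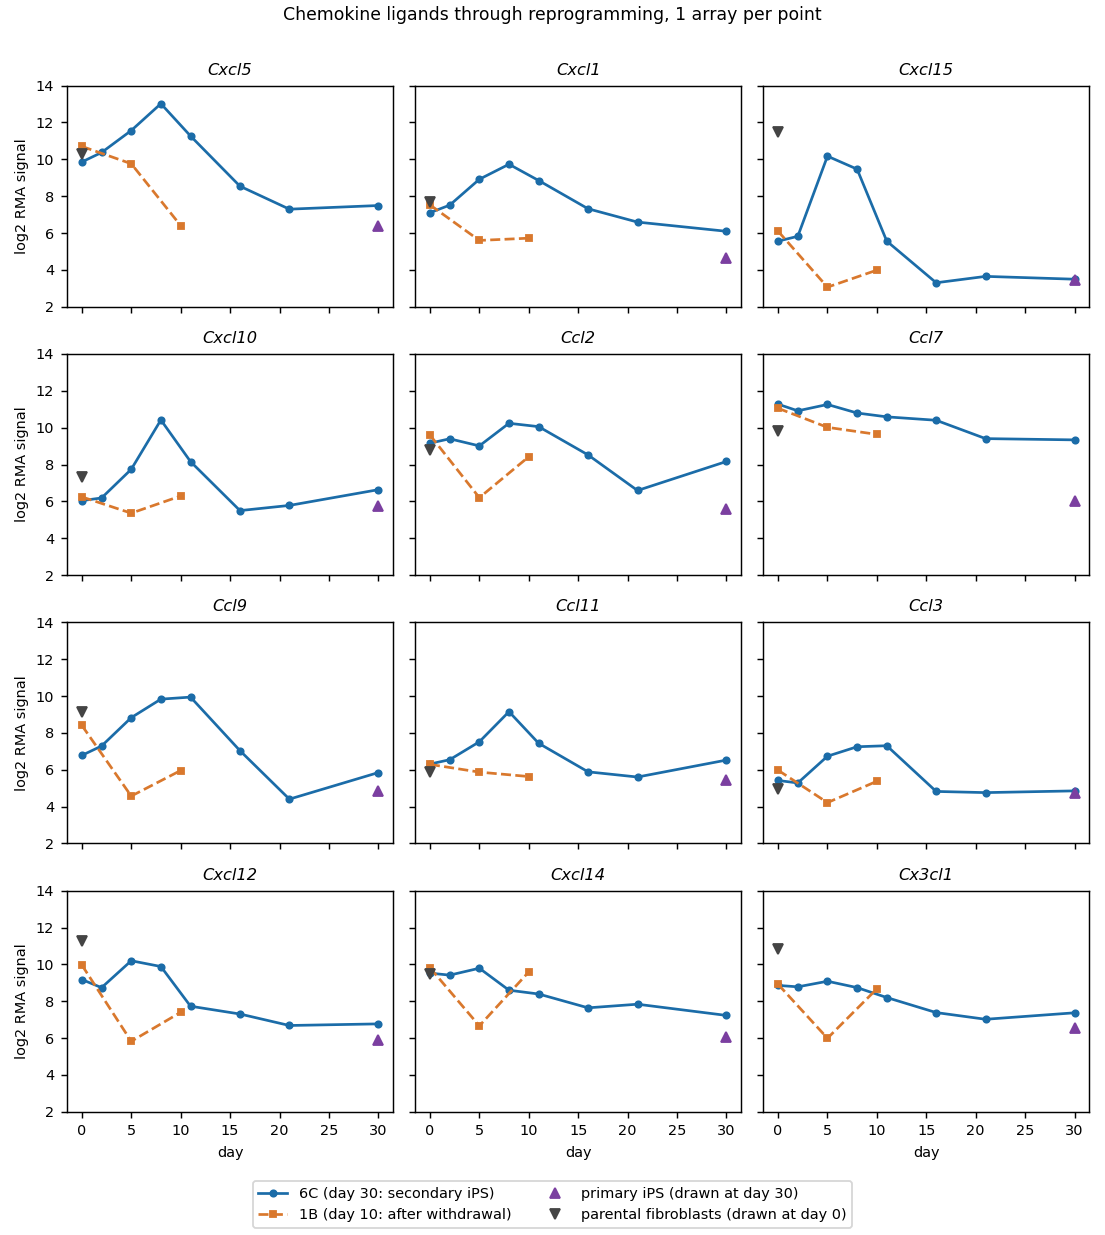
Log2 RMA level of 12 ligands against day, 1 array per point, for 6C (blue, ending in the secondary iPS array at day 30), 1B (orange, withdrawal at day 10), primary iPS cells (purple) and parental MEFs (dark grey). The 6C curves of Cxcl5, Cxcl1, Cxcl10, Ccl9, Ccl11 and Ccl3 peak at day 8 or 11, while 1B at day 5 lies below 1B at day 0 in every panel.

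The question of whether a ligand changed over the 6C series was put to a limma moderated F test of a degree 3 polynomial of day, the study's design text naming polynomial smoothing and a 2-fold change. A call needed a Benjamini-Hochberg adjusted p under 0.05 over all clusters and a fitted change of at least 2-fold from day 0, and its direction was that of the largest fitted change. Of the 30 ligands 3 were called higher (4.43% of all clusters) and 3 lower (1.93% of all clusters), 6 in all against 6.36% of clusters. At an unadjusted p under 0.05 there were 15, 9 higher and 6 lower, against 24.6% of clusters. Ccl9 reached a fitted change of 3.63 (SE 0.68) at day 8, with limma adjusted p = 0.026. Cxcl1 reached 2.37 (SE 0.44) at day 8, with limma adjusted p = 0.0259.

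Cxcl5 changed in both directions: its fitted change was 2.58 (SE 0.66) at day 8 and -2.47 (SE 0.62) at day 21, with limma adjusted p = 0.0219. Its call counts as higher by a small margin and counts as lower after quantile normalization or median centring. The 3 ligands called lower had fitted changes of -1.82 (SE 0.37) at day 30 for Ccl7 (limma adjusted p = 0.0377), -1.90 (SE 0.24) at day 21 for Cx3cl1 (limma adjusted p = 0.0203) and -2.38 (SE 0.49) at day 30 for Cxcl14 (limma adjusted p = 0.0478). The largest fitted change of each gene, at whichever day it fell, had a median of -0.03 over the 30 ligands and 0.18 over all clusters. By role this median was 1.84 for the ELR ligands, 2.42 for the Cxcr3 ligands and 1.83 for the inflammatory CC ligands. It was -1.11 for the other CXC and CX3C ligands and -0.54 for the homing ligands. The Cxcr3 value was that of Cxcl11 at day 30, and the ELR ligands included Cxcl15 at -3.32 on day 21, so these medians do not measure a change at 1 day.

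Leaving out 1 array at a time ended most calls, and over all clusters it gave 112 to 549 higher calls, against 1034 with all arrays. Ccl7 and Cxcl14 were called without none of the 8 arrays, Ccl9 only without day 0, Cxcl1 only without day 2 or day 16, and Cx3cl1 only without day 2, 8 or 16. Cxcl5 was called higher only without day 16 and was called lower without day 8, where Ccl8 was called higher. Leaving out day 5, day 11, day 21 or the secondary iPS array left no ligand called. A degree 2 curve called 0 ligands higher and 2 lower. A natural spline with 3 degrees of freedom called Cxcl1, Cxcl15 and Cxcl5 higher and Ccl7, Cx3cl1, Cxcl12 and Cxcl14 lower. Ccl9 was called with neither of these curves.

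The second question was how ligand levels in iPS cells differ from those in untreated fibroblasts. By limma, with 2 iPS and 3 untreated arrays, 0 of 30 ligands were higher (5.44% of all clusters) and 3 fell (3.32% of all clusters; 8.76% were called in either direction). At an unadjusted p under 0.05 no ligand was higher and 8 were lower, against 27.4% of clusters in either direction. Cxcl5 averaged 6.94 ± 0.78 in iPS cells and 10.28 ± 0.42 in untreated fibroblasts (SD, n = 2 and 3), a difference of -3.34 (SE 0.44, 10.1-fold, limma adjusted p = 0.0173). Cxcl14 averaged 6.66 ± 0.81 in iPS cells and 9.60 ± 0.19 in untreated fibroblasts, a difference of -2.94 (SE 0.39, 7.68-fold, limma adjusted p = 0.0183). Cxcl12 averaged 6.33 ± 0.62 in iPS cells and 10.13 ± 1.04 in untreated fibroblasts, a difference of -3.80 (SE 0.64, limma adjusted p = 0.0286). In 12 of 30 ligands both iPS arrays lay below all 3 untreated arrays (22.1% of all clusters), and only Cxcl16 lay above them (22.2% of all clusters).

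Just past the threshold lay Cxcl1, 5.37 ± 1.02 in iPS cells and 7.44 ± 0.30 in untreated fibroblasts (difference -2.06, SE 0.47, limma adjusted p = 0.0523). Ccl9 differed by -2.77 (SE 0.73, limma adjusted p = 0.0707) and Cx3cl1 by -2.57 (SE 0.67, limma adjusted p = 0.0696). These 3 joined the lower calls after quantile normalization, after median centring, or when only clusters with a mean of at least 6 were tested, giving 6 ligands. Without the parental array, the primary iPS array or the 1B day 0 array no ligand was called, without 6C day 0 only Cxcl5, and without the secondary iPS array 5 ligands (Ccl2, Ccl7, Cxcl1, Cxcl14 and Cxcl5). The median difference was -0.31 over the 30 ligands and -0.02 over all clusters. Of the 13 fibroblast markers 4 were called lower in iPS cells (3.32% of all clusters) and 0 higher (5.44%), with a median difference of -3.41. Their part in the ligand differences was not tested.

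The 7 Dox arrays were averaged for a further pair of comparisons in 1 limma fit, which share the iPS and untreated arrays with the comparison above. Against untreated fibroblasts 0 ligands were higher (2.76% of all clusters) and 0 lower (0.3% of all clusters); at an unadjusted p under 0.05 Cxcl16 was higher and 3 ligands were lower, against 20.8% of clusters. No ligand had all Dox arrays below the untreated ones (1.69% of all clusters). Cxcl16 was also the only ligand whose Dox arrays all lay above the untreated ones (6.82% of all clusters), at 7.57 to 9.55 (median 8.00) under Dox and 7.31, 7.14 and 6.87 in untreated fibroblasts. Its difference of 1.41 (SE 0.48) missed the threshold (limma adjusted p = 0.119). With run as a block Cx3cl1 and Cxcl12 were called lower.

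In iPS cells against the Dox arrays 0 ligands were higher (2.27% of all clusters) and 1 was lower (2.47% of all clusters), with 4.74% called in either direction. At an unadjusted p under 0.05 no ligand was higher and 4 were lower, against 19.6% of clusters. Ccl7 averaged 7.68 ± 2.35 in iPS cells and 10.48 ± 0.62 under Dox (SD, n = 2 and 7), a difference of -2.81 (SE 0.72, limma adjusted p = 0.0439). It was also the only ligand with both iPS arrays below all Dox arrays (8.67% of all clusters), though the secondary iPS level of 9.34 lay just under the lowest Dox level of 9.40. Without the primary iPS array the difference was -1.15 and Ccl7 was not called, nor was it called without 6C day 0, 1B day 0 or 6C at day 2, 5, 8, 11 or 16. With run as a block 4 ligands (Ccl7, Ccl9, Cxcl1 and Cxcl5) were lower.

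**Figure D3:**
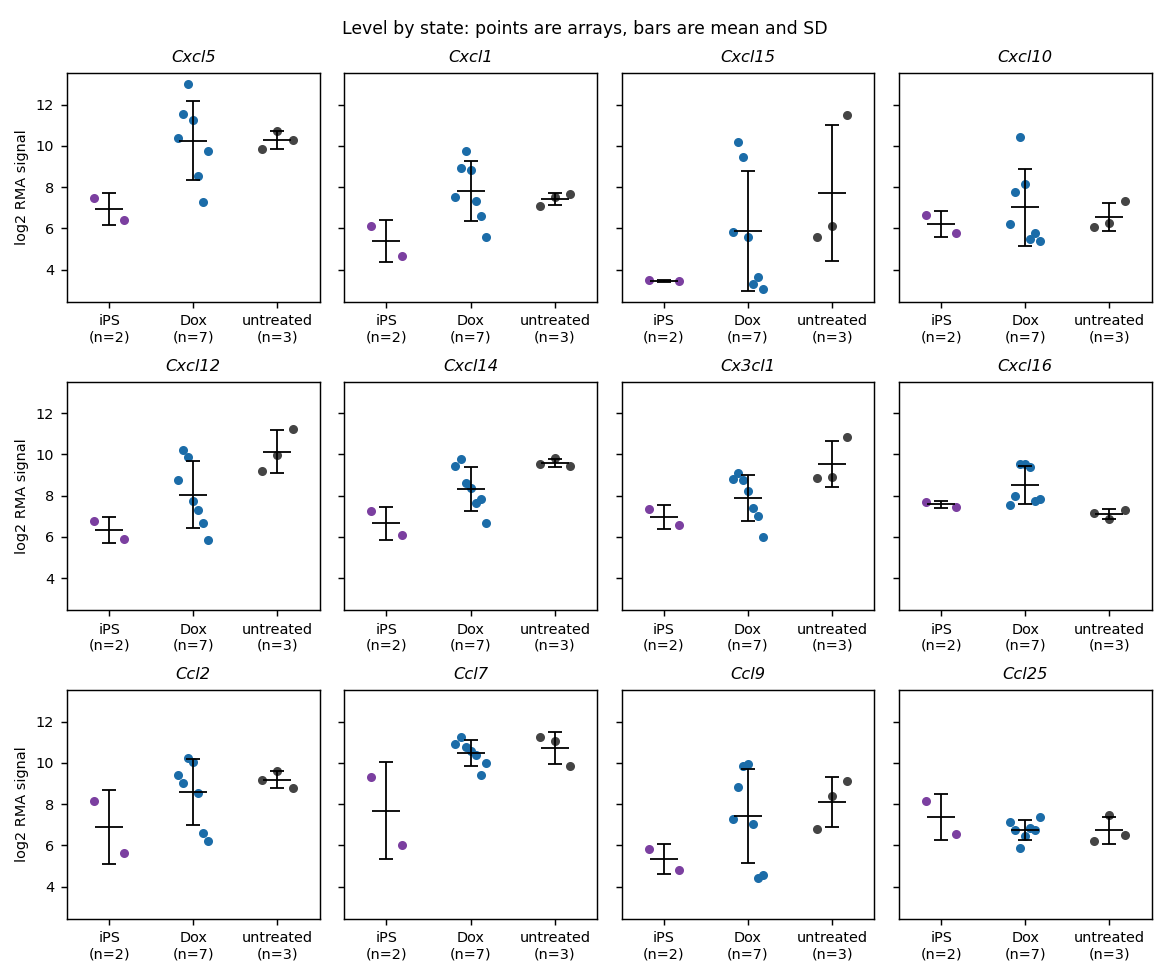
Log2 RMA level of 12 ligands in the 2 iPS arrays, the 7 Dox arrays and the 3 untreated arrays; points are arrays, bars are mean and SD. Cxcl5, Cxcl12 and Cxcl14 lie lower in iPS cells than in untreated fibroblasts, and the Dox arrays span most of the scale.

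At day 5 of Dox several ligands moved in opposite directions in the lines 6C and 1B. In 6C 10 of 30 ligands were at least 2-fold above day 0 (14.6% of all clusters) and 1 below (5.86%), whereas in 1B 0 were above (9.49%) and 11 below (12.7%). Together, 6 ligands were at least 2-fold higher in 6C and lower in 1B, against 2.01% of all clusters. Cxcl15 differed from day 0 by 4.61 in 6C and -3.04 in 1B, Ccl9 by 2.05 and -3.84, Cxcl12 by 1.02 and -4.14, Cxcl1 by 1.81 and -1.93, Ccl8 by 2.34 and -1.07, and Ccl3 by 1.32 and -1.76. With 1 array for each condition the difference between lines was not tested, and line and run cannot be told apart. The 6C change also crosses runs, since day 0 was in run 1 and day 5 in run 2. Against the parental MEFs, in run 2 too, 8 ligands were at least 2-fold higher on 6C day 5 (7.89% of all clusters) and 4 lower (10.2%). Day 5 of 6C and parental MEFs had 10.17 and 11.49 for Cxcl15, 8.83 and 9.13 for Ccl9, and 10.20 and 11.25 for Cxcl12. They had 8.92 and 7.68 for Cxcl1, 6.65 and 4.01 for Ccl8, and 6.73 and 4.94 for Ccl3.

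After median centring 3 of these 6 passed 2-fold in both lines (1.07% of clusters), and after quantile normalization 5 (1.2% of clusters); all 6 kept opposite signs under both. Averaged over the lines by limma with line as a block, 0 ligands were called in either direction, as were 0 clusters (0%); at an unadjusted p under 0.05 the count was 1 ligand, Ccl20, which was lower in both lines (-1.10 in 6C and -1.66 in 1B), and 7.59% of clusters. Ccl20 was the only ligand to pass 2-fold the same way in both lines.

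**Figure D4:**
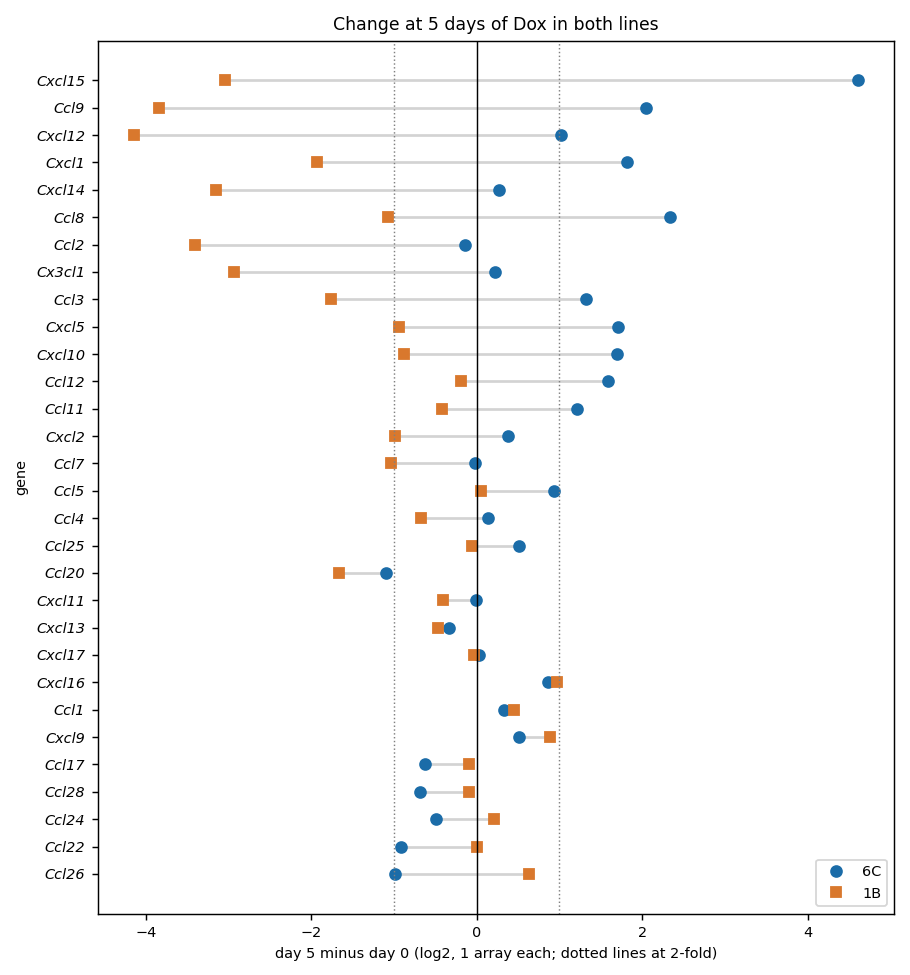
Difference between day 5 and day 0 (log2, 1 array each) for each of the 30 ligands in 6C (blue circles) and 1B (orange squares), with dotted lines at 2-fold. Most 6C points lie to the right of the 1B points of the same gene, by up to 7.65 log2 units in Cxcl15.

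Withdrawal of Dox from 1B for 5 days left 8 of 30 ligands at least 2-fold above day 5 (10.8% of all clusters) and 1 below (11.8%). Cxcl14 was 2.93 log2 units above day 5, Cx3cl1 2.68, Ccl2 2.22, Cxcl12 1.58 and Ccl9 1.39, the other 3 being Ccl20, Ccl3 and Ccl5. Cxcl14 and Cx3cl1 stood within 0.25 of day 0 after withdrawal. Cxcl5 went on to 6.40 after withdrawal, against 9.76 at day 5, so that it was 4.30 below day 0. Against day 0, 8 ligands were at least 2-fold lower after withdrawal (7.41% of all clusters) and 2, Cxcl16 and Ccl5, were higher (3.38%).

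Most fibroblast markers moved alongside. In 1B at day 5, 11 of 13 were at least 2-fold below day 0 (12.7% of all clusters) and 1 above (9.49%). After withdrawal 9 of 13 were at least 2-fold above day 5 (10.8% of all clusters) and 1 below (11.8%). Dcn went against the list at both steps, with 9.37 at day 0, 10.73 on day 5 and 6.83 after withdrawal. The part of these markers in the ligand differences was not tested.

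Within run 2, where no run difference enters, 9 ligands were at least 2-fold higher on 6C day 5 than on day 2 (6.03% of all clusters) and 0 lower (8.54%). On day 16, 11 ligands were at least 2-fold lower than on day 11 (5.22% of all clusters) and 0 higher (5.33%). The 9 were Cxcl15 (4.35 log2 units), Ccl12 (1.97), Cxcl10 (1.55), Ccl9 (1.54), Cxcl12 (1.46), Ccl3 (1.45), Cxcl1 (1.40), Cxcl5 (1.19) and Ccl8 (1.17). The largest differences of day 16 from day 11 were in Ccl9 (-2.91), Cxcl5 (-2.72), Cxcl10 (-2.66), Ccl3 (-2.48) and Cxcl15 (-2.26).

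On day 2 of 6C 1 ligand was at least 2-fold above day 0 (11.9% of all clusters) and 2 below (2.7%). On the day 8 array 15 ligands were at least 2-fold above 6C day 0 (12.5% of all clusters) and 0 below (8.37%). On day 11 there were 11 above (16.4%) and 3 below (7.32%), on day 16 there was 1 above (17.5%) and 8 below (6.86%), and on day 21, in the run of day 0, 0 above (13%) and 10 below (9.08%). The 6C day 0 array had the lowest median, so the median difference of day 5 from day 0 over all clusters was 0.20; centring each array on its median moved the counts as follows. Above day 0 were 0 ligands on day 2 (6.73% of clusters after the same centring), 7 on day 5 (8.17%), 13 on day 8 (9.44%), 9 on day 11 (10.9%), 1 on day 16 (12.4%) and 0 on day 21 (11.1%). Below day 0 were 4 on day 2 (5.32%), 4 on day 5 (11%), 1 on day 8 (11.8%), 6 on day 11 (12.3%), 9 on day 16 (10.4%) and 10 on day 21 (10.8%).

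The primary iPS cells, in the run of the parental MEFs, had 0 ligands at least 2-fold above them (14.1% of all clusters) and 11 below (19%). The primary iPS minus parental difference was -8.07 for Cxcl15, -5.36 for Cxcl12, -4.31 for Ccl9, -4.28 for Cx3cl1 and -3.90 for Cxcl5. The secondary iPS cells had 9 ligands at least 2-fold above the primary iPS cells (7.94% of all clusters) and 0 below (7.35%), led by Ccl7 (3.32), Ccl2 (2.55), Cxcl11 (1.87) and Ccl25 (1.58). After median centring 5 ligands were above (5.92% of clusters after the same centring) and 1 below (10.2%). Of the fibroblast markers 12 of 13 were at least 2-fold higher in secondary than in primary iPS cells (7.94% of all clusters). Their part in these differences was not tested.

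Gene lists around the ligands were counted in the same fits, with no test of a list. Of 20 chemokine receptors measured, 1 was called higher over the 6C series (4.43% of all clusters) and 0 lower (1.93%), so the higher count lay near the share of all clusters. Cxcr4, the receptor of Cxcl12, had 6C levels of 5.90 at day 0, 6.79 on day 2, 7.24 on day 5, 7.19 on day 8, 8.13 on day 11, 8.26 on day 16, 8.01 on day 21 and 6.96 in the secondary iPS cells. Its fitted change was 2.13 (SE 0.31, limma adjusted p = 0.0383). Ackr3, the other receptor of Cxcl12, had 6C levels of 6.14 at day 0, 6.96 on day 2, 8.30 on day 5, 8.88 on day 8, 8.37 on day 11, 7.13 on day 16, 8.56 on day 21 and 6.48 in the secondary iPS cells, and 8.73 in parental MEFs.

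Among 7 proteases known to cut or shed chemokines, 2 were called higher over the 6C series (4.43% of all clusters) and 2 lower (1.93%). Mmp3, a matrix metalloproteinase, stood between 12.75 and 13.02 on days 5, 8 and 11 of 6C, against 8.86 at day 0, with a fitted change of 4.31 (SE 0.80, limma adjusted p = 0.0312). Mmp13 and Mmp14 were called lower, with fitted changes of -3.00 and -2.75. Mmp13 had 11.60 on day 5, 11.27 on day 8, 10.96 on day 11 and 6.82 on day 21, against 10.13 at day 0. Mmp14 had 12.36 on day 5, 10.86 on day 8 and 9.27 on day 21, against 12.01 at day 0. Dpp4, which trims the amino end of several chemokines, was the other called higher, with a fitted change of 4.48 (SE 0.54, limma adjusted p = 0.0252), and is named after its values were seen.

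Of 19 genes of the NF-kappaB pathway and its inducers, 1 was called higher over the 6C series (4.43% of all clusters) and 5 lower (1.93%). On day 8 alone 8 of the 19 were at least 2-fold above day 0 (12.5% of all clusters) and 0 below (8.37%). The median of the 19 was 7.51 at day 0, 8.86 on day 5, 8.65 on day 8 and 7.30 on day 21. Il1r1, the interleukin 1 receptor, had 10.91 at day 5, 11.21 at day 8 and 8.06 at day 21, against 10.01 at day 0, and was called lower (fitted change -2.85, SE 0.51, limma adjusted p = 0.018). Il1r1 was 4.87 in 1B at day 5, against 10.24 at day 0. Tlr4, the receptor for bacterial lipopolysaccharide, and Tnfrsf1a, a receptor of tumour necrosis factor, were called lower too, with fitted changes of -1.99 and -2.28. Tlr4 had 8.86 on day 5 and 5.59 on day 21 of 6C, against 7.81 at day 0. Tnfrsf1a had 10.87 on day 5 and 8.84 on day 21, against 10.31 at day 0. Il6, itself a target of the pathway, was highest in 1B at day 0 (8.16) and reached 7.28 on 6C day 11.

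Of 16 interferon response genes, 15 were at least 2-fold above day 0 on day 8 of 6C (12.5% of all clusters). Over the series 3 were called higher (4.43% of all clusters) and 1 lower (1.93%). The median of the 16 was 5.87 at day 0, 10.03 at day 8 and 6.41 at day 16 of 6C. In the other untreated arrays it was 8.58 in parental MEFs and 7.16 in 1B at day 0. On day 8 of 6C, 11 of the 16 were at least 2-fold above the parental MEFs (8.59% of all clusters) and 0 below (15.7%). The day 8, 6C day 0 and parental arrays were each in a different run. Gbp2 had 10.70 at day 8 against 5.42 at day 0, Gbp3 had 10.85 against 5.16, Irf7 had 10.59 against 6.24, and Ifit1 had 9.86 against 3.56. In parental MEFs Gbp2 had 7.52, Gbp3 7.65, Irf7 8.60 and Ifit1 8.70. In 1B at day 5, 9 of the 16 were at least 2-fold below day 0 (12.7% of all clusters) and 1 above (9.49%).

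Macrophages make many of these ligands, and most of their markers were also higher on 6C day 8 than at day 0. Of 17 macrophage markers, 13 were at least 2-fold above day 0 on day 8 of 6C (12.5% of all clusters). Over the series 6 of these markers were called higher (4.43% of all clusters) and 0 lower (1.93%). Their summed level on the linear scale lay between 1857 and 4099 in iPS cells and between 886 and 7521 under Dox. In untreated fibroblasts it lay between 1233 and 1757, and the highest value was that of 6C day 8. The marker sum was 4326 on 6C day 5 and 4477 on day 21, where the ligand sum was 12253 and 2486. On day 21 Laptm5, at 11.69, made up most of the marker sum. That day 2 of the 17 markers were at least 2-fold above day 0 (13% of all clusters) and 5 below (9.08%). Levels of different genes are not comparable, so these sums are description only. The marker median was 7.23 on day 5 and 4.88 on day 21. In the parental MEFs the marker sum was 1757 and the ligand sum 12207. The median of the 17 went the other way between iPS cells and untreated fibroblasts. It was 4.87 and 5.34 in iPS cells, against 5.66 to 6.08 in untreated fibroblasts. The primary iPS array had 2 markers at least 2-fold above the parental array (14.1% of all clusters) and 8 below it (19%). Ctss reached 10.56 on day 8 against 6.98 at day 0, C1qa 9.03 against 6.03, and C1qb 8.80 against 6.35. The part of these markers in the ligand levels was not tested. Of the 13 fibroblast markers 2, Lum and Dcn, were called higher over the 6C series (4.43% of all clusters). Called lower were 5 (1.93% of all clusters), Col1a2, Col3a1, Col6a1, Col6a3 and Pdgfrb, which were named after their values were seen. On day 8 alone 3 of the 13 were at least 2-fold above day 0 (12.5% of all clusters) and 5 below (8.37%). Lum, a collagen-binding proteoglycan, had 12.97 on day 8 of 6C against 8.26 at day 0, and Dcn, another, had 13.32 against 10.19. In the parental MEFs Lum had 12.48 and Dcn 13.10, and in 1B at day 0 they had 7.80 and 9.37. Pdgfrb, a growth factor receptor, had 10.30 on day 8 against 11.87 at day 0, and Col6a3, a collagen chain, had 10.03 against 12.11. Laptm5 was 11.48 in the primary iPS cells, where the summed level of the ligands was lowest, and it made up most of the summed marker level there. Cd163, a macrophage marker named after its values were seen, never exceeded 4.63. The 10 lymphocyte and granulocyte markers had a median of 4.15 to 4.85 on every array.

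Of 11 epithelial and keratinocyte markers, 6 were called higher over the 6C series (4.43% of all clusters) and 0 lower (1.93%). In 1B at day 5, 7 were at least 2-fold above day 0 (9.49% of all clusters) and 1 below (12.7%). Epcam, an epithelial adhesion molecule, had 9.59 in 6C and 11.04 in 1B at day 5, against 4.87 in 6C and 4.41 in 1B at day 0. Of 8 endothelial markers 2 were called higher (4.43% of all clusters) and 1 lower (1.93%) over the 6C series. Among the 10 lymphocyte and granulocyte markers only Kit, which pluripotent cells also express, was called higher (4.43% of all clusters).

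**Figure D5:**
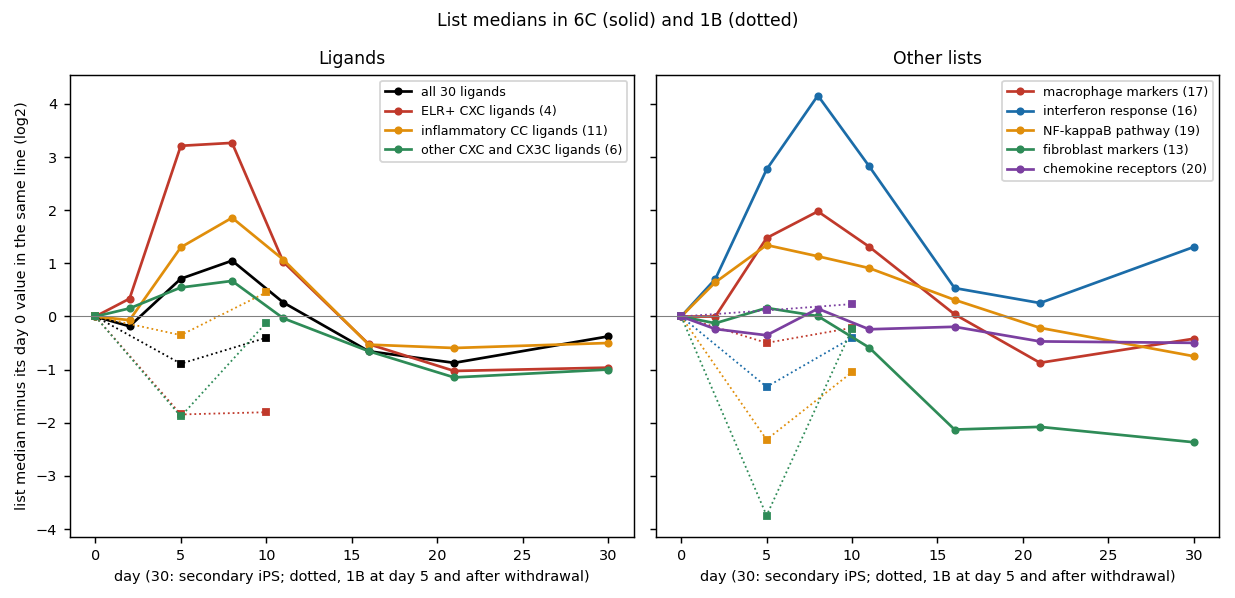
Median level of each list minus its day 0 value in the same line (log2), against day, for 6C (solid, with secondary iPS cells at day 30) and 1B (dotted, day 5 and after withdrawal); ligands on the left, other lists on the right, with the number of genes in brackets. In 6C the ELR ligands, the inflammatory CC ligands, the interferon response genes and the macrophage markers all peak at day 8, while the chemokine receptors stay within 0.5 of day 0.

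Position and promoter sequence were compared as description. The ligands lay on 7 chromosomes, with 11 on chromosome 11 and 10 on chromosome 5. In the RefSeq gene order of GRCm38.p6 the row Ccl2, Ccl7, Ccl11, Ccl12, Ccl8 and Ccl1 on chromosome 11 had no other protein-coding gene between its members. Their 6C courses differed: Ccl2, Ccl11 and Ccl12 were highest at day 8, Ccl8 and Ccl1 at day 5, and Ccl7 at day 0. In the row Ccl22, Cx3cl1 and Ccl17 on chromosome 8, Cx3cl1 ranged over 4.84 log2 units and its neighbours over 0.91 and 1.62.

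RefSeq promoters were at hand for 19 of the 30 ligands and were searched on both strands from 250 bases before the start into the first bases of the transcript. The kappaB motif was found in 5 of 19 (26.3%), against 4.35% of 27025 promoters: Ccl20, Ccl9, Cxcl1, Cxcl10 and Cxcl2. The ISRE core GAAANNGAAA was found in 2 (10.5%), Cxcl10 and Cxcl14, against 3.49%. The AP-1 core TGANTCA was found in 4 (21.1%), Ccl28, Ccl9, Cxcl10 and Cxcl9, against 7.93%, those of Ccl28 and Cxcl9 lying past the start. Of the 5 with a kappaB motif, Ccl9, Cxcl1, Cxcl10 and Cxcl2 were highest on 6C day 8 or 11, and Ccl20 at day 0. Day 8 was the highest 6C array for 11 of all 30 ligands (7.76% of all clusters) and day 11 for 3 (10.5%). Ccl12, Ccl3, Cxcl13 and Cxcl9, whose promoters held no kappaB motif, were highest on these days too. A link between the motif and the 6C course was not tested. A match is a run of letters and does not show binding.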

How the data were processed

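Total RNA from 13 cell samples had been hybridised to Affymetrix mouse exon arrays. The deposited series matrix holds the authors' log2 values of 23332 transcript clusters, made with Affymetrix Expression Console and RMA and annotated on mm9, per the submitters' processing notes. No source names the log base, and base 2 was assumed because values ran from 0.46 to 14.3. Of the clusters 14996 carried 1 gene symbol, 1019 several and 7317 none. RMA pulls low probes towards a common floor, so changes of dim ligands are understated, and array number limits precision. Tests used limma 3.58.1 in R 4.3.3 on all clusters, with Benjamini-Hochberg adjusted p under 0.05 and at least 2-fold. The code was tested on simulated data. There the 6C change followed a straight line over days, so recovery of a mid-course peak was not tested. The labels name no separate cultures, so p-values measure only the spread between these arrays. The members and lists were chosen with earlier results of these data known. Ligands called, ranging over at least 3 log2 units or widest in their role are described in full, and up to 4 of the widest genes of each other list are named. Alternatives were other scalings, day 8 taken as day 9, a filter on a mean of at least 6, other curves, run as a block, no fold, and each array left out; scalings of single-array differences and highest-array counts without day 8 or within run 2 were added after seeing the data.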

Additional observations from a re-analysis of the deposited data

Results flagged for a closer look

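For 6 ligands the day 5 arrays moved in opposite directions in the 2 lines, higher than day 0 in 6C and lower than day 0 in 1B, each by at least 2-fold. The 6C change minus the 1B change (log2) was 7.65 for Cxcl15, 5.89 for Ccl9, 5.16 for Cxcl12, 3.74 for Cxcl1, 3.41 for Ccl8 and 3.08 for Ccl3. The difference between lines was not tested, since each line had 1 array per condition. The 6C arrays of days 0 and 5 were in different runs, while the 1B arrays shared a run. In the parental MEFs, which shared the run of 6C day 5, Cxcl15, Ccl9 and Cxcl12 were higher than on 6C day 5, and Cxcl1, Ccl8 and Ccl3 lower. Centring arrays on their medians, an alternative added after seeing the data, left 3 of the 6 past 2-fold in both lines (Ccl9, Cxcl1 and Cxcl15), and quantile normalization left 5. All 6 had opposite signs under both.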

How the results depend on the processing

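Of the ligands lower in iPS cells than in untreated fibroblasts (3), quantile normalization, median centring and the filter on a mean of at least 6 each gave 6, with 1299, 1295 and 1501 clusters lower, and leaving out 1 array gave 0 to 5 ligands, 79 to 448 clusters higher and 1 to 480 lower. In the 6C series the filter gave 5 ligands in each direction and 1948 clusters higher and 1124 lower; clusters lower were 809 after quantile normalization and 689 after centring. A degree 2 curve gave 0 ligands higher, and turned the largest fitted change of Ccl9 to -3.06, Cxcl1 to -2.19 and Cxcl5 to -4.33. Cxcl5 also turned to -2.66 after quantile normalization, -2.50 after centring, and to -3.56, -2.83 and -2.47 without day 0, 2 or 8, its range with 1 array left out being -3.56 to 2.79. Leaving out 1 array gave 0 to 2 ligands higher and 0 to 2 lower, with 112 to 549 clusters higher and 30 to 199 lower. For Dox against untreated, clusters lower (70) were 157 after quantile normalization, 122 after centring, 152 with the filter and 243 with run as a block, which gave 2 ligands lower; leaving out 1 array gave 198 to 1057 clusters higher and 0 to 429 lower. For iPS against Dox, run as a block gave 4 ligands and 935 clusters lower, and leaving out 1 array gave 0 to 2 ligands lower, 243 to 644 clusters higher and 109 to 769 lower. Centring gave 334 clusters higher and 259 lower at day 5 of both lines, where no cluster was called otherwise. The cause of these shifts was not tested. No paired analysis was possible because the labels number no replicates; line was the block at day 5. Run as a random block could not be fitted for iPS against untreated, leaving out arrays of the day 5 fit left no residual degrees of freedom, and each ligand had 1 cluster, so other clusters of the gene gave no value.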
